A study of Mus musculus with 6 samples.

Results

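The genes described here are 33 mouse genes of DNA replication and the S phase of the cell cycle, the phase in which a cell copies its genome. They were taken by name from a table of 26332 genes, by matching each Entrez gene ID to its RefSeq symbol, and all 33 were found and passed the filter on low counts. RNA-seq had been done on natural killer (NK) cells, cytotoxic lymphocytes of the innate immune system, sorted from the thymus of C57BL/6 mice. The study compared 4 wild-type (WT) libraries with 2 Tcf7 knockout (KO) libraries, each from an individual mouse. The males were WT 1, WT 3 and KO 1, and the females were WT 2, WT 4 and KO 2. In both genotypes the gate kept cells that carried NK1.1 and NKp46 and lacked TCRbeta, CD3, CD8 and binding of the CD1d tetramer. Neither the ages of the mice nor the kind of Tcf7 allele is stated in the labels, and with 2 KO mice the spread within that group rests on a single pair.

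Replication is prepared before S phase, when CDC6 and CDT1 load the ring-shaped MCM helicase onto origins. CDC45, the GINS complex and MCM10 then turn the helicase on, primase and the polymerases copy both strands, and the PCNA clamp, its loader and the nick-sealing enzymes complete the lagging strand. Many of these genes are switched on by E2F factors at the end of G1, so their transcripts are widely read as a sign of dividing cells. The series asks about the role of TCF-1, the DNA-binding protein that Tcf7 encodes, in thymic NK cells; it is best known from T cell development.

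The libraries held 16418910 to 31155303 counts. Levels are given as CPM, counts scaled to a common library total with TMM factors, and as RPKM, the same values per kilobase of the deposited gene length. Tcf7, read as a check of the labels, had 943, 947, 811 and 880.1 CPM in WT 1 to WT 4 and 268 and 452 CPM in KO 1 and KO 2 (log2 fold change -1.35, SE 0.17, adjusted p = 0.00294). The KO libraries thus still held Tcf7 counts, at lower levels than any WT library, and counts per gene cannot show which part of the gene they come from. The NK receptor gene Ncr1, which encodes NKp46, had 1023, 1036, 976 and 820.1 CPM in WT 1 to WT 4 and 982 and 739 CPM in KO 1 and KO 2, with overlapping groups (log2 fold change -0.17, SE 0.12, adjusted p = 0.384). Klrb1c, which encodes NK1.1, had 1690.2, 1704, 1554 and 1616 CPM in WT 1 to WT 4 and 1269 and 1083 CPM in KO 1 and KO 2 and fell (log2 fold change -0.48, SE 0.09, adjusted p = 0.0149). Both genes of the gate were thus counted in all 6 libraries, and the fold changes of all 12 NK cell genes listed were below 0.

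Replication and S phase genes were higher in KO than in WT. By edgeR's quasi-likelihood test with sex as a covariate and Benjamini-Hochberg adjustment over 13652 genes, 16 of the 33 rose (adjusted p under 0.05), none fell and 17 did not pass. Over all genes tested, 8.13% were called higher and 5.58% lower. No member was lower at an unadjusted p under 0.05, and the count of lower members was 0 by DESeq2 and by limma voom. In each of these fits all 33 fold changes were above 0, so these counts add nothing to the signs. The median log2 fold change of the members was 0.63, against 0.02 over all genes. Their fold changes ran from 0.03 to 1.64 and all 33 were above 0 (51.7% of all genes were), although those of Slbp and Cdt1 changed sign when a library was left out. Of the 16 calls, 8 were at least 2-fold, where 5.87% of all genes were called higher by that much. Both KO libraries lay above all 4 WT libraries for 28 members, and this held for 20.5% of all genes. The 5 whose groups overlapped were Cdt1, Pcna, Rfc4, Fen1 and Slbp.

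The number of calls depended on single libraries, while the median did not change sign. Without WT 1, WT 2, WT 3 or KO 1 the members called higher were 5, 9, 4 and 2, where 4.90%, 6.03%, 4.96% and 4.58% of all genes were. The 2 of 33 without KO 1 are a share near that of all genes. Without WT 4 or KO 2 the members called higher were 22 and 12, against 8.59% and 3.90% of all genes. Rrm2 and Pole were the 2 members called under all 17 alternative settings. In bulk samples such as these, more dividing cells and more RNA of these genes per cell cannot be told apart.

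**Figure D1:**
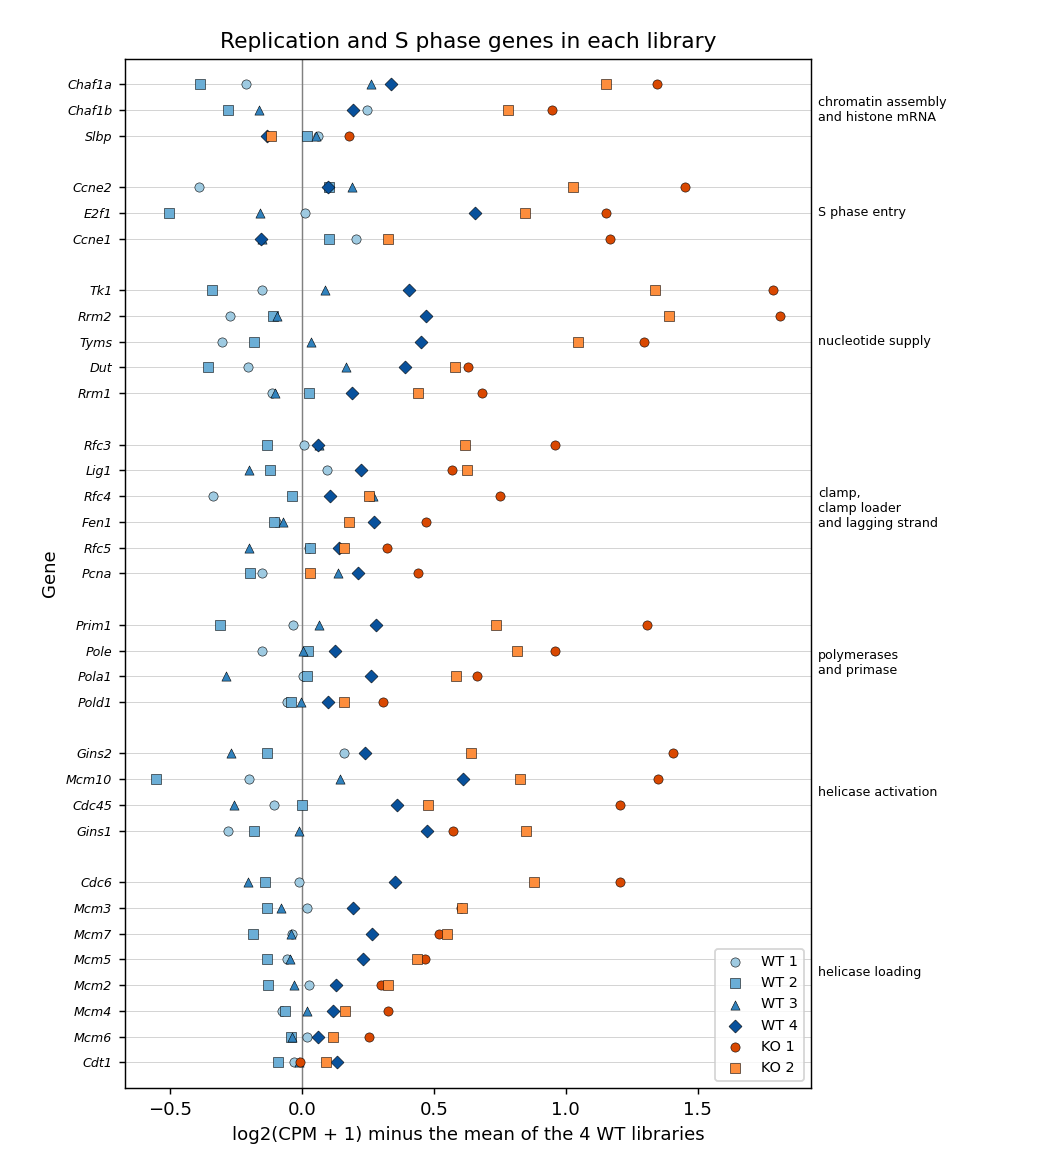
Level of each of the 33 genes in each library, as log2(CPM + 1) minus the mean of the 4 WT libraries (horizontal axis), with the genes grouped by role (vertical axis). Blue symbols are the WT libraries and orange symbols KO 1 and KO 2, and for 28 genes both orange symbols lie to the right of all blue ones.

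The promoters of the members were read for letters that E2F factors are known to bind, since E2F factors are known regulators of many of these genes. RefSeq promoter windows of GRCm38.p6, which run from 250 bases before to 50 after a start site, were matched for 28 of the 33 members. None was matched for Ccne2, Gins1, Gins2, Mcm4 and Pole. A start site need not be the outer end of the gene span. The windows of Cdc6, Dut and E2f1 lie wholly inside the span, so bases before its outer end were not read for them. The letters searched on both strands were TTTCCCGC, TTTGGCGC, TTTGCCGC and TTTCGCGC. At least 1 of them was found in 10 members (35.7%), Cdc6, Cdt1, Lig1, Mcm3, Mcm5, Mcm6, Mcm7, Pola1, Pold1 and Rfc3, and in 704 of all 27025 genes with a window (4.75% of the 10367 that were also tested). The 10 members with the letters had a median log2 fold change of 0.57, and the 18 without them 0.85. Neither Rrm2 nor Tk1, the members with the largest fold changes, held the letters in its window. Shown are the windows of Cdc6 and Rfc3, the called members with the largest change among those 10, of Mcm3, the called member among them with the highest level, and of Mcm5, which was just above the threshold. Each is given 5′ to 3′ on the strand of the gene, with the matched letters, or their reverse complement, in capitals.
Cdc6, chr11:98907901-98908200, plus strand: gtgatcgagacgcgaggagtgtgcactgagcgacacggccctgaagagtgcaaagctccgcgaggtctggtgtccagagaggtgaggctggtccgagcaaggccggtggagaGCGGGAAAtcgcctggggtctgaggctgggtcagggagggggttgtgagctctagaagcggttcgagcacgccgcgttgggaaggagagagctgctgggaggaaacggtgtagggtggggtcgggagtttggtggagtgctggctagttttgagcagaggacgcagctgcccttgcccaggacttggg
Rfc3, chr5:151651159-151651458, minus strand: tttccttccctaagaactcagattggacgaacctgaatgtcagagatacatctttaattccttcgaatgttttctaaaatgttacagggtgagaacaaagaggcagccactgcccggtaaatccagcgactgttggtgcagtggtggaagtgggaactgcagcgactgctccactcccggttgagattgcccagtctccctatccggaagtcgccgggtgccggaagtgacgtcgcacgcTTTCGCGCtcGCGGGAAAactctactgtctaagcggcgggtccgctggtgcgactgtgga
Mcm3, chr1:20820263-20820562, minus strand: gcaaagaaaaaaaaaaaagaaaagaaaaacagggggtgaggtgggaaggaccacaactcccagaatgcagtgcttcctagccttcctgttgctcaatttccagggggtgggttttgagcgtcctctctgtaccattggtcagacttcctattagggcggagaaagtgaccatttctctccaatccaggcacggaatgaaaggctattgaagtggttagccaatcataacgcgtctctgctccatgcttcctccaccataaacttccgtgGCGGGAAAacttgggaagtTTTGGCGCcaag
Mcm5, chr8:75109259-75109558, plus strand: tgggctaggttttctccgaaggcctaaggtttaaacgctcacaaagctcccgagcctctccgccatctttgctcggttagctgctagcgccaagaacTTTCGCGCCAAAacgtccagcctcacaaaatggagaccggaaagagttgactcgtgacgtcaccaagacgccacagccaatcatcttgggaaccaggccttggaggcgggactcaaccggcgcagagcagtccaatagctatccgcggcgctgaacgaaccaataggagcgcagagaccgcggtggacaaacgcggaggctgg

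In Mcm5 a forward TTTCGCGC from base 98 of the window overlaps a reverse TTTGGCGC that ends at base 109, so the capitals form a single stretch. In Rfc3 a forward and a reverse match, from bases 241 and 251, lie on either side of 2 other letters. The pair in Mcm3, from bases 270 and 289, falls after the start site. The CCAAT box (CCAAT) was found in 15 of the 28 members (53.6%) and in 42.9% of tested genes. The cell cycle homology region of late cell cycle genes (TTTGAA) was found in 3 members (10.7%), Cdc45, Fen1 and Mcm2, and in 14.5% of tested genes. Letters bound by TCF and LEF factors (CTTTGAT or CTTTGAA, the second of which contains TTTGAA) were found in 1 member, Fen1, and in 7.11% of tested genes. Such matches are descriptions of the letters and not measured binding sites.

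Among the 8 helicase loading genes, 3 rose and 5 did not pass, with a median log2 fold change of 0.38. For this and each later role group, the shares over all genes tested were 8.13% called higher and 20.5% with both KO libraries above all WT libraries. The groups are small, so their counts only describe the genes in them. Cdc6, the loader that recruits the MCM ring to origins, had 7.20, 6.49, 6.18 and 9.56 CPM in WT 1 to WT 4 and 18.1 and 14.2 CPM in KO 1 and KO 2. Both KO libraries lay above the WT range, and Cdc6 rose 2.20-fold (log2 fold change 1.14, SE 0.25, adjusted p = 0.0247). Mcm3, a subunit of the ring, had 101, 91.2, 94.8 and 115 CPM in WT 1 to WT 4 and 153 and 153 CPM in KO 1 and KO 2, with nearly equal KO values that exceeded every WT value (log2 fold change 0.61, SE 0.12, adjusted p = 0.0168). Mcm7, another subunit, also rose (log2 fold change 0.53, SE 0.14, adjusted p = 0.0428), although its gene span overlaps Ap4m1 and 3 microRNA genes.

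The other 4 ring subunits stayed on the other side of the threshold, with every KO value above the WT range. Mcm6 was the member with the highest level per length, at 89.7 RPKM in WT and 102 RPKM in KO, and its values were 264, 253, 253 and 272 CPM in WT 1 to WT 4 and 311 and 283 CPM in KO 1 and KO 2 (log2 fold change 0.19, SE 0.09, adjusted p = 0.226). Mcm5 had 119 ± 13.8 CPM in WT (SD, n = 4) and 162 ± 2.61 CPM in KO (SD, n = 2) (log2 fold change 0.45, SE 0.12, adjusted p = 0.0525), the member closest above the threshold. Mcm2 and Mcm4 had log2 fold changes of 0.31 and 0.25 (adjusted p = 0.102 and 0.181). Cdt1, the partner of CDC6 in loading, was at 60.8 ± 4.17 CPM in WT (SD, n = 4) and 62.6 ± 3.04 CPM in KO (SD, n = 2) (log2 fold change 0.04, SE 0.11, adjusted p = 0.838), with overlapping groups.

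Of the 4 helicase activation genes, 1 rose (8.13% of all genes did) and 3 did not pass. Their median log2 fold change of 1.04 was nonetheless above that of all members. Gins2, a GINS subunit, had 6.31, 4.98, 4.44 and 6.74 CPM in WT 1 to WT 4 and 16.3 and 9.20 CPM in KO 1 and KO 2. The KO values were above all WT values but far from each other, and the call was close to the threshold (log2 fold change 1.15, SE 0.30, adjusted p = 0.0469). Leaving out WT 1, WT 2, WT 3, KO 1, or WT 3 and WT 4 together ended the call. Its log2 fold change came to 0.65 in the absence of KO 1 and to 1.59 in the absence of KO 2. The span of Gins2 overlaps that of Gse1. Mcm10, a scaffold of the active helicase, had a similar log2 fold change with a larger error (log2 fold change 1.14, SE 0.37, adjusted p = 0.0870). Cdc45, a helicase cofactor, and Gins1 had log2 fold changes of 0.93 and 0.83 (adjusted p = 0.0730 and 0.145). Cdc45 was 22.9 CPM in KO 1 and 13.4 in KO 2, against 7.68 to 12.3 in WT.

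The catalytic genes of the replicative polymerases rose in 3 of 4 cases. Pole, the catalytic subunit of the leading-strand polymerase epsilon, had 24.6, 27.9, 27.5 and 29.98 CPM in WT 1 to WT 4 and 54.2 and 49.01 CPM in KO 1 and KO 2. The lowest KO value was 1.63 times the highest WT value, and Pole rose 1.88-fold (log2 fold change 0.91, SE 0.13, adjusted p = 0.00456). Prim1, the catalytic primase subunit that starts each new strand, had 15.7, 12.8, 16.8 and 19.7 CPM in WT 1 to WT 4 and 41.2 and 27.4 CPM in KO 1 and KO 2 and was higher in both KO libraries, more so in KO 1 (log2 fold change 1.06, SE 0.22, adjusted p = 0.0192). Pola1, the X-linked catalytic subunit of polymerase alpha, rose, with 36.6 ± 5.80 CPM in WT (SD, n = 4) and 56.5 ± 2.18 CPM in KO (SD, n = 2) (log2 fold change 0.63, SE 0.15, adjusted p = 0.0305). Pold1, the catalytic subunit of the lagging-strand polymerase delta and the member of this group with the highest level per length (20.4 RPKM in WT), had 67.03, 67.6, 69.6 and 74.7 CPM in WT 1 to WT 4 and 86.5 and 77.95 CPM in KO 1 and KO 2. Its KO values were above the WT range by a small margin, and it did not pass (log2 fold change 0.24, SE 0.11, adjusted p = 0.193).

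In the group of the sliding clamp, the clamp loader and lagging-strand processing, 2 of 6 genes rose, with a median log2 fold change of 0.43. Rfc3, a clamp loader subunit, had 13.2, 11.9, 13.8 and 13.8 CPM in WT 1 to WT 4 and 26.5 and 20.7 CPM in KO 1 and KO 2, and both KO values were above a narrow WT range (log2 fold change 0.83, SE 0.16, adjusted p = 0.0159). Lig1, the ligase that seals lagging-strand fragments, had 57.4, 49.3, 46.7 and 62.99 CPM in WT 1 to WT 4 and 80.2 and 83.5 CPM in KO 1 and KO 2, and rose with close KO values (log2 fold change 0.60, SE 0.14, adjusted p = 0.0305). The span of Lig1 overlaps that of Zswim9. Pcna, the clamp, was among the members with the highest level per length, at 77.3 RPKM in WT and 91.4 RPKM in KO. It had 86.9, 84.1, 106 and 112 CPM in WT 1 to WT 4 and 132 and 98.7 CPM in KO 1 and KO 2, with KO 2 inside the WT range, and did not pass (log2 fold change 0.23, SE 0.17, adjusted p = 0.399). Named pseudogenes of Pcna and of Tyms are annotated, so the split of their reads is uncertain. Rfc4, Rfc5 and the flap nuclease gene Fen1 had log2 fold changes of 0.53, 0.25 and 0.33 (adjusted p = 0.191, 0.294 and 0.211).

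Genes of nucleotide supply showed the largest changes of all the groups by median log2 fold change (1.22), with 4 of 5 called. Rrm2, the regulated subunit of ribonucleotide reductase, which makes deoxyribonucleotides, had 23.9, 26.9, 27.2 and 40.6 CPM in WT 1 to WT 4 and 104 and 77.8 CPM in KO 1 and KO 2. The lowest KO value was 1.91 times the highest WT value, and Rrm2 rose 3.11-fold (log2 fold change 1.64, SE 0.22, adjusted p = 0.00415). Tk1, the thymidine kinase of dividing cells, had 8.74, 7.55, 10.5 and 13.3 CPM in WT 1 to WT 4 and 36.3 and 26.4 CPM in KO 1 and KO 2. It rose 3.11-fold (log2 fold change 1.64, SE 0.25, adjusted p = 0.00682), did not pass when KO 1 was left out (1.34, adjusted p = 0.0684), and its span overlaps Afmid. Tyms, which makes thymidylate, rose, with 12.02 ± 3.14 CPM in WT (SD, n = 4) and 27.8 ± 3.55 CPM in KO (SD, n = 2) (log2 fold change 1.22, SE 0.24, adjusted p = 0.0174).

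Rrm1, the large subunit that pairs with RRM2, had 105, 116, 106 and 130.3 CPM in WT 1 to WT 4 and 184 and 155 CPM in KO 1 and KO 2. It rose by less than its partner (log2 fold change 0.57, SE 0.13, adjusted p = 0.0274), so the 2 reductase subunits moved in the same direction with unequal size, although the difference between them was not tested. Per length, Rrm1 stood at 28.6 RPKM in WT and 42.4 in KO, and Rrm2 at 13.6 and 41.8 RPKM. Dut, which clears dUTP, had 45.1 ± 10.9 CPM in WT (SD, n = 4) and 67.6 ± 1.64 CPM in KO (SD, n = 2) (log2 fold change 0.59, SE 0.21, adjusted p = 0.111).

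The 3 genes of S phase entry all had both KO values above the WT range (20.5% of all genes did). Of them 1 was called higher (8.13% of all genes were). Ccne2, a cyclin E gene whose product drives CDK2 at the start of S phase, had 3.08, 4.75, 5.10 and 4.72 CPM in WT 1 to WT 4 and 13.6 and 9.91 CPM in KO 1 and KO 2 and rose 2.66-fold (log2 fold change 1.41, SE 0.30, adjusted p = 0.0214). It had the lowest level per length of all members, 1.37 RPKM in WT, and of the single libraries, leaving out WT 3 or KO 1 ended its call. The span of Ccne2 overlaps that of the coding gene Ints8. Ccne1, the other cyclin E gene, had 12.5, 11.5, 9.53 and 9.48 CPM in WT 1 to WT 4 and 25.3 and 13.7 CPM in KO 1 and KO 2. KO 1 stood well above the rest and KO 2 just above WT (log2 fold change 0.80, SE 0.24, adjusted p = 0.0672). E2f1 had 12.1, 8.14, 10.6 and 19.4 CPM in WT 1 to WT 4 and 27.9 and 22.3 CPM in KO 1 and KO 2, with a wide WT range in which WT 4 was highest (log2 fold change 1.00, SE 0.33, adjusted p = 0.0845).

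Of the genes that restore chromatin behind the fork, Chaf1a and Chaf1b, subunits of the histone chaperone CAF-1, both rose. Chaf1a had 14.4, 12.7, 20.4 and 21.6 CPM in WT 1 to WT 4 and 44.4 and 38.8 CPM in KO 1 and KO 2 (log2 fold change 1.27, SE 0.23, adjusted p = 0.0129), and Chaf1b had 15.3, 10.3, 11.3 and 14.7 CPM in WT 1 to WT 4 and 25.5 and 22.6 CPM in KO 1 and KO 2 (log2 fold change 0.90, SE 0.21, adjusted p = 0.0295). In both genes the KO values were close to each other and above all WT values. The span of Chaf1a overlaps that of Ubxn6. Slbp, which binds the stem-loop of histone mRNA, had 129, 125, 128 and 112 CPM in WT 1 to WT 4 and 139.5 and 114 CPM in KO 1 and KO 2. Its groups overlapped and it had the smallest fold change of the 33 (log2 fold change 0.03, SE 0.10, adjusted p = 0.875), at 75.7 RPKM in WT.

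**Figure D2:**
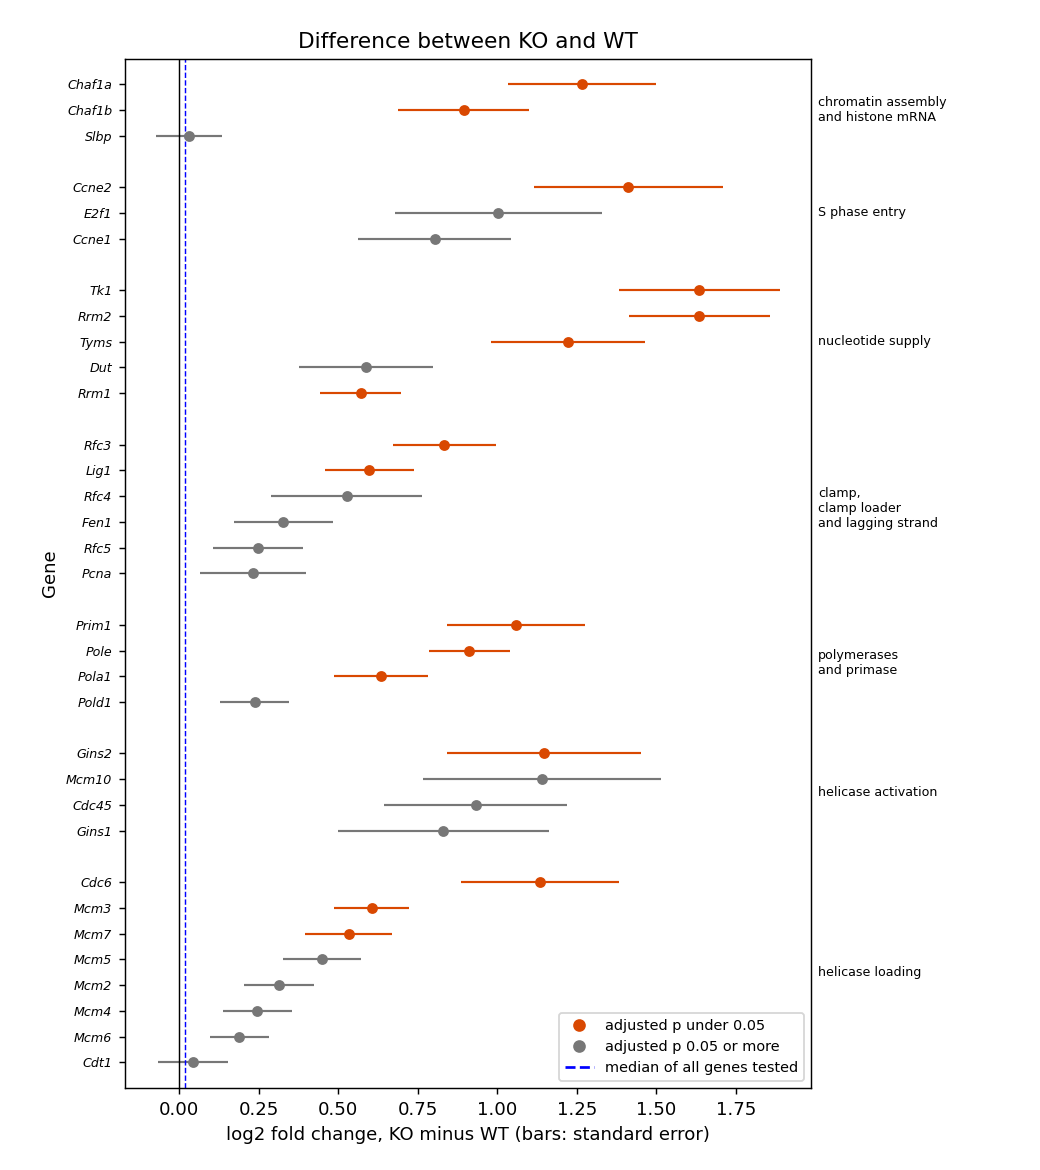
Log2 fold change of KO minus WT for each gene (horizontal axis, bars are standard errors), grouped by role (vertical axis), with the median of all genes as a dashed line. Orange points had an adjusted p under 0.05, grey points did not, and all 33 points lie to the right of 0, from 0.03 for Slbp to 1.64 for Tk1 and Rrm2.

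Fold changes were lower on the whole in members with higher WT levels, although Tk1 and Rrm2, with the largest (1.64), lay in the middle of the range of levels. In the 11 members with the lowest WT level per length (1.37 to 5.50 RPKM) the median log2 fold change was 1.14 and none was below 0.80. In the middle 11 (6.74 to 20.4 RPKM) the median was 0.63, with a range of 0.24 to 1.64. In the 11 with the highest level (24.5 to 89.7 RPKM) it was 0.31 and none was above 0.61. Spearman's rho between the WT level in RPKM and the log2 fold change was -0.80 across the 33 genes, and -0.39 across all 13382 tested genes with a symbol. The level and the fold change share the WT libraries, so these values only describe the genes. The differences in level did not follow the same order, with a median of 4.04 RPKM in the lowest group and 12.5 RPKM in the highest.

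**Figure D3:**
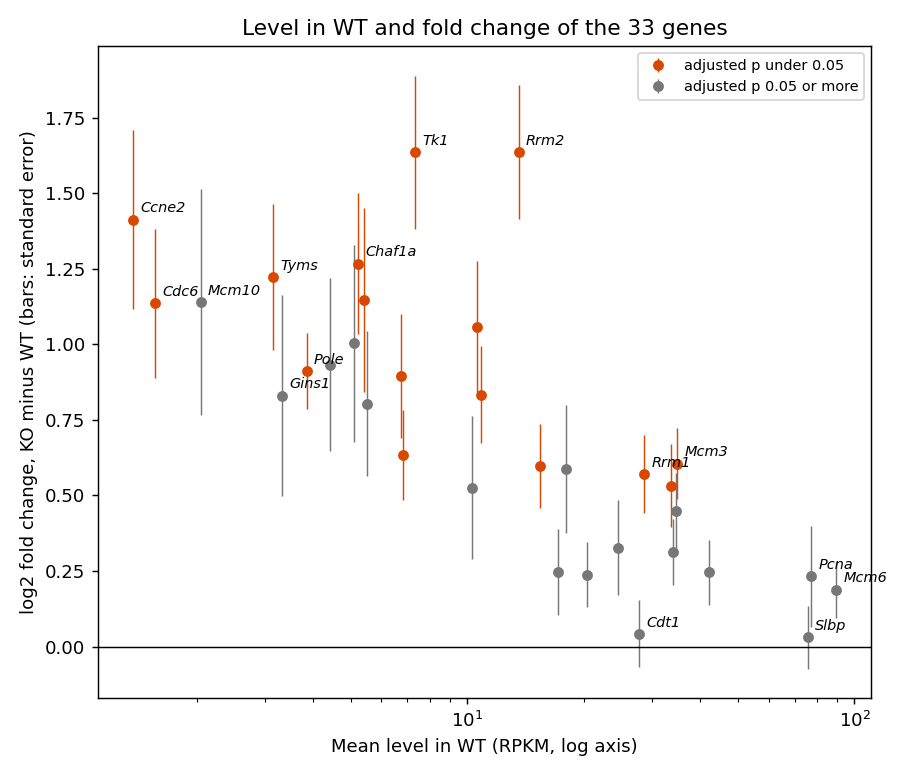
Mean WT level of each of the 33 genes (horizontal axis, RPKM on a log scale) against its log2 fold change of KO minus WT (vertical axis, bars are standard errors, orange for an adjusted p under 0.05). The points fall from Ccne2 at 1.37 RPKM towards Slbp, Pcna and Mcm6 at 75.7 to 89.7 RPKM.

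Taken per library, the members summed to 1669.9, 1607, 1688 and 1933 CPM in WT 1 to WT 4, and to 2528 and 2242 CPM in KO 1 and KO 2. Relative to the WT mean these sums were 0.932 to 1.12 in WT, 1.47 in KO 1 and 1.30 in KO 2. Among WT libraries WT 4 had the highest value for 27 of the 33 genes. How many of all genes were highest in WT 4 was not counted, so this count lacks a background. KO 1 was above KO 2 for 27 members, where 47.7% of all genes were. The 6 exceptions were Mcm2, Mcm3, Mcm7, Cdt1, Gins1 and Lig1. The ratio of KO 1 to KO 2 ran from 0.804 in Gins1 to 1.85 in Ccne1.

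KO 1 came from a male and KO 2 from a female, so mouse and sex cannot be told apart within KO. Among males, KO 1 exceeded the mean of WT 1 and WT 3 for all 33 members, by a median of 0.79 on the scale of log2(CPM + 1). Among females, KO 2 exceeded the mean of WT 2 and WT 4 for 32 of 33, by a median of 0.56. Of all 13652 genes tested, 6863 were above 0 in the male comparison (median 0.003) and 7132 in the female comparison (median 0.02). By the edgeR test no member was called for sex or for the genotype by sex interaction, which also held for every other gene tested (0% called in both). At an unadjusted p under 0.05, 0 members passed for sex (6.34% of all genes did) and 1 for the interaction (10% did), Cdc45 (log2 difference of differences -1.18, adjusted p = 0.444). The interaction term, female minus male in the KO difference, was below 0 for 31 of the 33 members, with a median of -0.34. The sex term was below 0 for 15 of 33, with a median of 0.01. How many of all genes had these terms below 0 was not counted, so both counts lack a background.

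Other genes of the replication pathway were taken from a list of 71 that holds no member. By edgeR, 21 rose (8.13% of all genes did), none fell (5.58% of all genes did) and 50 did not pass. Of the 71 fold changes 51 were above 0 (51.7% over all genes), and the median log2 fold change was 0.34. Lower at an unadjusted p under 0.05 were 2, and both DESeq2 and limma voom called 1 as lower, the clamp loader accessory gene Chtf8. Of 13 regulators of S phase, 9 rose. The repressor gene E2f7 had 2.35, 3.49, 2.16 and 5.81 CPM in WT 1 to WT 4 and 11.5 and 9.13 CPM in KO 1 and KO 2 (log2 fold change 1.69, SE 0.39, adjusted p = 0.0286). Its relative E2f8 had 6.64, 7.22, 7.38 and 10.9 CPM in WT 1 to WT 4 and 24.3 and 17.3 CPM in KO 1 and KO 2 (log2 fold change 1.38, SE 0.26, adjusted p = 0.0148), and the activator gene E2f2 had 36.9, 31.2, 29.9 and 40.3 CPM in WT 1 to WT 4 and 70.97 and 52.3 CPM in KO 1 and KO 2 (log2 fold change 0.83, SE 0.17, adjusted p = 0.0217). In all 3 both KO values lay above the WT range. The CDK inhibitor gene Cdkn1b had 165, 172, 154 and 153 CPM in WT 1 to WT 4 and 166 and 179 CPM in KO 1 and KO 2 (log2 fold change 0.10, SE 0.10, adjusted p = 0.568). Its relative Cdkn1a had 2.71, 2.47, 2.88 and 22.1 CPM in WT 1 to WT 4 and 1.91 and 8.61 CPM in KO 1 and KO 2. WT 4 stood above all other libraries, and Cdkn1a did not pass (log2 fold change -0.53, SE 0.73, adjusted p = 0.685). Without WT 4 its log2 fold change was 0.56.

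Of 26 further replisome subunits 6 rose, led by the nuclease-helicase gene Dna2 (log2 fold change 1.87, SE 0.36, adjusted p = 0.0158). Dna2 had 2.19, 2.27, 2.76 and 3.27 CPM in WT 1 to WT 4 and 13.2 and 6.68 CPM in KO 1 and KO 2. Of 14 genes of origin recognition and its kinases 2 rose, and of 10 further nucleotide genes 1 rose, shares near the 8.13% of all genes called higher. The larger change of the first list was in Gmnn, the inhibitor of CDT1, with 10.4, 8.80, 13.9 and 14.8 CPM in WT 1 to WT 4 and 31.7 and 22.4 CPM in KO 1 and KO 2 (log2 fold change 1.17, SE 0.25, adjusted p = 0.0222). The nucleotide gene was Dtymk, the thymidylate kinase gene, with 31.4, 26.4, 32.6 and 37.1 CPM in WT 1 to WT 4 and 57.1 and 47.3 CPM in KO 1 and KO 2 (log2 fold change 0.71, SE 0.16, adjusted p = 0.0260). In these genes both KO libraries lay above all WT libraries. Of 8 chromatin replication genes 3 rose, led by the helicase gene Hells, with 26.2, 21.5, 24.6 and 28.98 CPM in WT 1 to WT 4 and 64.7 and 49.6 CPM in KO 1 and KO 2 (log2 fold change 1.16, SE 0.16, adjusted p = 0.00409). Under the 17 alternatives Hells lost its call in 0, Dna2, E2f2 and E2f8 in 3 each, Gmnn and E2f7 in 4 each and Dtymk in 5.

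Mitosis and G2/M genes, which act after S phase, were also higher in KO. Of 35 such genes 27 rose and none fell, with a median log2 fold change of 1.43, and all 35 were higher in KO 1 than in KO 2. Over all genes tested, 8.13% rose, 5.58% fell and 47.7% were higher in KO 1 than in KO 2. The summed CPM of the 35 genes relative to the WT mean was 3.29 in KO 1 and 1.84 in KO 2, against 1.47 and 1.30 for the members. The difference between the lists was not tested.

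**Figure D4:**
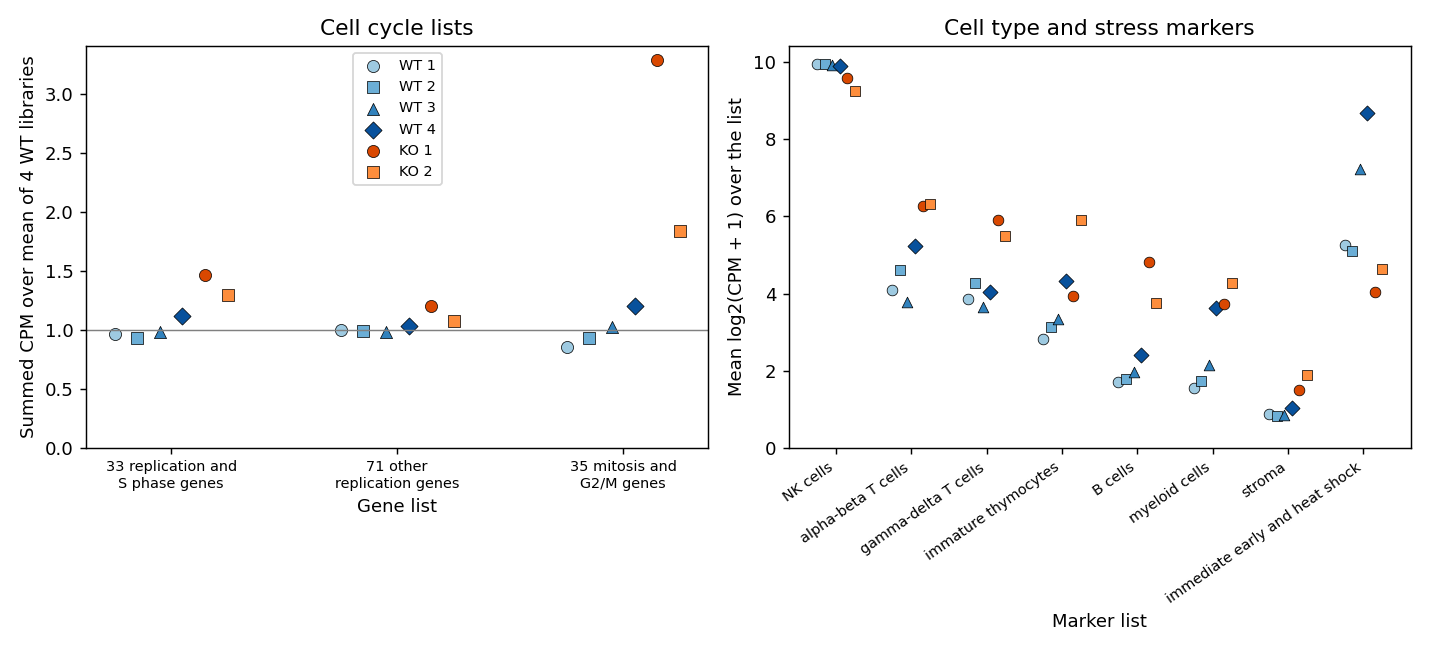
Left, summed CPM of the 33 members, 71 other replication genes and 35 mitosis and G2/M genes in each library, divided by the mean of the 4 WT libraries. Right, mean log2(CPM + 1) over lists of cell type and stress markers in the same libraries. KO 1 and KO 2 stand above every WT library for B cells, T cells, myeloid cells and stroma. They stand below every WT library for NK cells and for immediate early and heat shock genes, and KO 1 is inside the WT range for immature thymocytes.

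Marker lists of other thymic and blood cells also varied between the libraries, not all in the order of the replication genes. Summed levels were higher in KO 1 than in KO 2 for B cells and gamma-delta T cells. They were higher in KO 2 for alpha-beta T cells and immature thymocytes. The mean log2(CPM + 1) over 12 B cell genes was 1.70 to 2.41 in WT, 4.80 in KO 1 and 3.74 in KO 2, with summed levels of 401 to 455, 647 and 538 CPM. Over 12 alpha-beta T cell genes it was 3.79 to 5.22, 6.26 and 6.32 (384 to 590.1, 1713 and 2199 CPM), and over 9 gamma-delta T cell genes 3.65 to 4.28, 5.90 and 5.50 (272 to 424, 808 and 611 CPM). Over 11 genes of immature thymocytes it was 2.83 to 4.32 in WT, 3.94 in KO 1 and 5.90 in KO 2 (745 to 869, 552 and 1201 CPM). KO 1, with the higher level of 27 of the 33 replication genes, was thus inside the WT range for immature thymocyte genes by this mean. By summed level it was below that range, but 2 genes of the list, Satb1 and Tcf12, held most of that sum in WT. Their WT means were 482 and 236 CPM, where the summed level of the list was 793 CPM. Satb1 was called lower, with 456 to 507 CPM in WT and 226 CPM in KO 1. The sum thus says little on the other genes of the list. The recombinase gene Rag1 had 4.25, 11.2, 10.4 and 62.3 CPM in WT 1 to WT 4 and 20.2 and 322 CPM in KO 1 and KO 2.

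Genes called higher in these lists numbered 9 of 12 for B cells, 5 of 12 for alpha-beta T cells and 6 of 9 for gamma-delta T cells. For immature thymocytes 4 of 11 were called higher and 1 fell. The shares over all genes tested were 8.13% called higher and 5.58% lower. Of the 12 NK cell genes 3 fell and none rose, with a mean log2(CPM + 1) of 9.89 to 9.97 in WT, 9.59 in KO 1 and 9.27 in KO 2. Myeloid genes were at 1.55 to 3.62 in WT, 3.71 in KO 1 and 4.26 in KO 2 (433 to 612, 614 and 681 CPM), with none of 11 tested called. Stromal genes were at 0.83 to 1.03, 1.50 and 1.89 (112 to 119.6, 273 and 451 CPM), with 4 of 7 tested called higher. Psmb11 and Col3a1 were listed at 0 in all WT libraries and in KO 1. A WT mean of at least 10 CPM was reached by 7 alpha-beta T, 6 gamma-delta T, 5 immature thymocyte, 2 B, 3 myeloid and 1 of the stromal genes, so part of each list is also counted in the WT sort. The part of these cells in the higher replication transcripts was not tested.

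WT 3 and WT 4 stood apart in immediate early and heat shock genes, whose mean log2(CPM + 1) was 7.22 and 8.69 there, 5.27 and 5.11 in WT 1 and WT 2, and 4.04 and 4.64 in KO 1 and KO 2. With both left out, a setting added after seeing the data, 19 members rose, against 7.41% of all genes, and the median log2 fold change was 0.74.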

How the data were processed

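The authors deposited unnormalised read counts for each Entrez gene in 6 libraries, and the 6 files of single samples were identical to that table, which had 0 columns of other samples. Per the labels' protocols, SMART-Seq v4 libraries were sequenced as paired ends on a NextSeq. Per the submitters' processing notes, featureCounts and mm10 were used. Aligner and versions: not given in the sources used here. The kit marks no strand, so reads from exons shared by overlapping genes cannot be separated. Of the 33 members, 14 overlap another RefSeq gene by their whole span, introns included, and 10 overlap a coding gene. Those 10 are Mcm7, Cdc45, Gins2, Rfc4, Fen1, Lig1, Tk1, E2f1, Ccne2 and Chaf1a. Whether exons overlap was not checked.

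Symbols came from RefSeq for GRCm38.p6 (25275 of 26332 IDs matched; the others held 0.623% of counts and stayed in the tests). Counts were fitted with edgeR 4.0.16 in R 4.3.3 (TMM, filterByExpr, glmQLFit, glmQLFTest, sex additive, 3 residual degrees of freedom) and called at a Benjamini-Hochberg adjusted p under 0.05. The SE is the size of the log2 fold change over the square root of F. The interaction came from a fit with the product term. Between replicates, chi-square over degrees of freedom was 8.86 to 62.2 in 7 pairs, above the 1 of sampling noise. Litters are not stated, and p-values measure the spread between these mice. The fit was tested on simulated data.

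The members, lists, motifs and tests were chosen with earlier results of these data known. Given per library were, by role group, the 2 called members with the largest change and the member with the highest mean RPKM; from the other replication genes, the called gene with the largest change per sublist and direction, and 5 regulators. E2f1, Ncr1, Klrb1c and Rag1 were added after their values were seen. A marker gene is not reported here. Alternatives used scaling by RLE, upper quartiles or library size, dropped the filter or required 5 CPM in 2 libraries, dropped the sex term, or used a replicate block, DESeq2 1.42.0, limma 3.58.1 voom or robust quasi-likelihood. Each library was also left out in turn (a lone KO library was then assumed to vary like WT), and WT 3 and WT 4 together, which was added after seeing the data.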

Additional observations from a re-analysis of the deposited data

Results flagged for a closer look

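Fen1, the flap nuclease gene, had 65.6 CPM in WT 4, while the other 3 WT libraries stood between 50.2 and 51.3 CPM. The gap between WT 4 and its nearest neighbour took up 0.924 of the WT range, above Dixon's 95% critical value for 4 samples. It was the only 1 of the 33 genes set apart in this way, and chance alone sets apart about 1 in 20 groups. Without WT 4, Fen1 was called (log2 fold change 0.45, adjusted p = 0.0477). Its gene span overlaps that of Tmem258, and WT 4 had the highest WT value for 27 of the 33 genes, a count without its share over all genes.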

How the results depend on the processing

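Members stayed above 0 in log2 fold change under all 17 alternatives, except Slbp and Cdt1. Slbp had -0.00879 with the replicate block (replicate number in place of sex), -0.00701 when WT 3 and WT 4 were both left out, and -0.0687 to 0.116 with each library left out in turn. Cdt1 had -0.00876 to 0.0913 with each library left out. Cdkn1a, a CDK inhibitor gene, had 0.72 with the replicate block, 0.20 by limma voom, 0.70 when WT 3 and WT 4 were both left out, and -0.94 to 0.56 with each library left out. With each library left out in turn, the members called higher numbered 2 to 22 (3.90% to 8.59% of all genes were, and 4.58% where the members numbered 2), the other replication genes called higher 6 to 24, all genes called 934 to 1908 (1872 with all libraries), and the median log2 fold change of the members was 0.52 to 0.81. DESeq2 called 2955 genes in all, and DESeq2 and limma voom each called 1 other replication gene lower. Members called higher numbered 16 to 22 over the other scalings, filters and tools, where 8.13% to 11.7% of all genes were. With the replicate block they numbered 15 (median 0.74), against 6.26% of all genes, and 5 members lost and 4 gained a call. In that fit WT 3 and WT 4 have no KO library of the same number, so the genotype difference rests on the other libraries. KO 1 and KO 2 share a number and a sex with their WT namesakes, and litters are not stated. Deviations from the group means correlated at 0.13 for WT 1 with KO 1 and at -0.05 for WT 2 with KO 2. With 2 KO libraries their deviations mirror each other, so these values cannot decide whether the libraries were paired. Of all genes called, 59.3% were higher with TMM and 71.9% with library-size scaling. The causes of these changes were not tested. A floor of 3 counts is 0.0963 to 0.183 CPM, below the lowest value of any member.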

Other observations

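Subunits of the same replication complex were called in some cases and not in others. In polymerase epsilon, Pole rose (0.91, log2 fold change of KO minus WT by edgeR), while the subunit genes Pole2, Pole3 and Pole4 had 0.60, -0.23 and -0.22 and none was called (adjusted p = 0.296, 0.506 and 0.212). In polymerase alpha and primase, Pola1 and Prim1 rose (0.63 and 1.06), and Pola2 and Prim2 had -0.01 and 0.53 (adjusted p = 0.948 and 0.145). Within GINS, Gins4 had -0.12 (adjusted p = 0.702) beside 1.15 for Gins2. In the clamp loader, Rfc1 and Rfc2 had 0.16 and -0.17 (adjusted p = 0.432 and 0.435) beside 0.83 for Rfc3. The genes of RPA, which coats single-stranded DNA, were not called, with -0.07, 0.30 and 0.06 for Rpa1, Rpa2 and Rpa3 (adjusted p = 0.730, 0.163 and 0.931). Timeless, Tipin and Clspn, which protect stalled forks, all rose (1.16, 0.83 and 1.53, adjusted p = 0.00291, 0.0227 and 0.00739). These genes were picked for this paragraph after their values were seen, and the differences between subunits were not tested.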
